A study of Mus musculus with 21 samples.

Results

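Cardiac and endothelial progenitors that had both carried induced Sox7 for 24 h were compared by their open chromatin. The comparison used 4 of the 21 samples of the series: 2 ATAC-seq peak lists of induced cardiac progenitors (CPC) and 2 of induced endothelial progenitors (EPC). ATAC-seq maps open chromatin, because a transposase inserts sequencing adapters where DNA is accessible, and a peak marks a stretch with many insertions. Peaks of the 4 lists were merged where they overlapped by 1 bp or more, and a region was called CPC-only or EPC-only when both lists of that type had a peak there and neither list of the other type had one. Of 43626 merged regions, 2908 (6.67%) were CPC-only and 3638 (8.34%) were EPC-only. The 4 ATAC lists of the same progenitor types without induction gave the state of each region in uninduced cells. Those lists were also collected at day 4, so no time course was measured. Below, before and after stand for the uninduced and the induced lists. Words such as standing, kept, still, lost and joined compare these lists in the same sense.

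All cells came from A2lox-Sox7-Myc, a doxycycline-inducible derivative of the E14Tg2a mouse embryonic stem cell line that makes Sox7 with a Myc tag, so every sample rests on 1 engineered line. Cells differentiated as embryoid bodies, floating aggregates in which mesoderm forms, and were collected at day 4. Induced groups received doxycycline at 1 µg/ml for 24 h and uninduced groups received none. Doxycycline was given to whole aggregates before the sort. By the sample labels, CPC were sorted as PDGFRα+FLK1+ and EPC as PDGFRα-FLK1+, whereas the growth protocol names a PDGFRα+FLK1- sort; the groups follow the sample labels. Whether replicates came from separate cultures is not given in the labels, and the spread behind each p-value may therefore be technical.

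FLK1 (the product of Kdr) is the main receptor for vascular endothelial growth factor and marks mesoderm that can form heart, vessel and blood cells, while PDGFRα is retained as that mesoderm turns to cardiac and paraxial fates. Endothelial and blood progenitors arise together and use ETS factors (Fli1, Erg, Ets1), Tal1 and Gata2, and cardiac progenitors use Mesp1, Hand2, Isl1, Gata4 and Tbx20. Sox7 belongs to the SOXF group with Sox17 and Sox18, which acts in early endothelium. Cell type differences in open chromatin usually lie in distal regulatory elements, whereas promoters of widely used genes are open in most cells.

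The induced lists held 27979 to 30732 peaks and the uninduced lists 23068 to 27934, with replicate 2 the shorter list in both uninduced groups. Sequencing depth is unknown because the lists hold no counts, so closed chromatin and a shallower library cannot be told apart at a missing peak. Each peak carries a score, deposited by the authors, which in the MACS 1.4 format is the log10 of its p-value multiplied by -10. The lowest score in every list was 50.0. Induced CPC lists held 28635 ± 928 peaks (SD, n = 2) and induced EPC lists 29824 ± 1285 (SD, n = 2), and the covered length was 28535188 ± 687907 bp against 30741530 ± 2205236 bp. Both EPC lists covered more than both CPC lists. The two-sided exact permutation p was 0.667 for peaks and 0.333 for length, both 0.667 after Benjamini-Hochberg adjustment over 4 measures. The smallest p that 2 against 2 lists allow is 0.333, so no difference of any size could pass a threshold of 0.05. Median peak width was 895 ± 7.07 bp in CPC and 910 ± 21.2 bp in EPC, and 38.9% ± 1.07 and 38.6% ± 0.991 of peaks lay within 1 kb of a gene boundary (SD, n = 2 each, exact permutation p = 0.667 for both).

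Replicates of a type resembled each other more than the other type. Of the shorter list's peaks, 82.3% overlapped a peak of the other list between the CPC replicates and 84.1% between the EPC replicates. Between a CPC and an EPC list the share was 72.0 to 75.3%. Of all merged regions, 17447 had a peak in all 4 lists and 12445 (28.5%) in 1 list only. CPC-only regions made up 12.9% of the regions found in both CPC lists, and EPC-only regions 15.3% of those in both EPC lists. With 1 library deciding for its type the counts were much larger: 5557 CPC-only regions without CPC replicate 1, 6243 without CPC replicate 2, 7522 EPC-only regions without EPC replicate 1 and 6416 without EPC replicate 2. Without CPC replicate 1 or 2 the EPC-only count was the lower one, at 5166 and 4806.

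The receptors used for the sort were checked at their genes. Kdr (chromosome 5) had an EPC-only region inside the gene at 75961760 to 75963085, with scores of 888 and 755 in the induced EPC lists and no peak in either induced CPC list. Before induction the same stretch scored 1011 and 415 in EPC and 106 in CPC replicate 2. A region at the Kdr promoter (75978006 to 75979143) had a peak in all 8 lists, with induced scores of 207 and 97.4 in CPC and 213 and 250 in EPC. Both types carry FLK1 by the sort, and the promoter was open in both, while the region inside the gene separated them. A weaker CPC-only region lay 28.6 kb from Kdr, with scores of 99.5 and 98.2. Pdgfra had no CPC-only region under induction. Its main region, 75154524 to 75157199, had a peak in all 8 lists, at induced scores of 367 and 272 in CPC and 161 and 238 in EPC. A region 0.781 kb from Pdgfra had a peak in both CPC lists and neither EPC list before induction (55.6 and 106), and under induction in both CPC lists (59.8 and 161) and also in EPC replicate 1 (61.7). The chromatin at Pdgfra thus did not separate the induced types by the rule, although the protein was used to sort them.

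Promoters that differed between the induced types are shown for genes of the gene lists, because these are the sites where a difference lies at the start of a named lineage gene. RefSeq promoter windows of GRCm38.p6 run from 250 bases before to 50 bases after a gene's start. CPC-only regions overlapped a window in 102 of 2908 cases (3.51%) and EPC-only regions in 188 of 3638 (5.17%). The 250 bases before the start are given 5′ to 3′ on the gene's strand, and capitals mark the letters of 9 short motifs found on either strand. EPC-only regions covered part or all of the first 4 windows, those of Itga2b (integrin αIIb, an early blood marker), Cbfa2t3 (a corepressor of the Tal1 complex), Robo4 (an endothelial guidance receptor) and Egfl7 (a secreted endothelial factor). CPC-only regions covered part or all of those of Lef1, a transcription factor of Wnt signalling, and Sparc, a matrix protein.
Itga2b (chr11:102469884-102470133, minus strand): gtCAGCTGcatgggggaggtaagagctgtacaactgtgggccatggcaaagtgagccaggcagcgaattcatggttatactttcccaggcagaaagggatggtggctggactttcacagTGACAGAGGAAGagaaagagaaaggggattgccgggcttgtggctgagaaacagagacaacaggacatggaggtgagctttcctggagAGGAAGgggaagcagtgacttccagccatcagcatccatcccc
Cbfa2t3 (chr8:122699110-122699359, minus strand): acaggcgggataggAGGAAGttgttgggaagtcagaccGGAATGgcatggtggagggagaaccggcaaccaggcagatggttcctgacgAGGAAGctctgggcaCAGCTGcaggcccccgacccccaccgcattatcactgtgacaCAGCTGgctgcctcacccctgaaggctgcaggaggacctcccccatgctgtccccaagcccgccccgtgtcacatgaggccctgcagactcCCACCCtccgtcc
Robo4 (chr9:37401722-37401971, plus strand): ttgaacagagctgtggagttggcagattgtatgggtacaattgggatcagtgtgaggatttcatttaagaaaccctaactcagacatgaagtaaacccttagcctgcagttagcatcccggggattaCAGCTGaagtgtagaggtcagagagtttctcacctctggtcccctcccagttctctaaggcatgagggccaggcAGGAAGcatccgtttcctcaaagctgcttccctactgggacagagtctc
Egfl7 (chr2:26583615-26583864, plus strand): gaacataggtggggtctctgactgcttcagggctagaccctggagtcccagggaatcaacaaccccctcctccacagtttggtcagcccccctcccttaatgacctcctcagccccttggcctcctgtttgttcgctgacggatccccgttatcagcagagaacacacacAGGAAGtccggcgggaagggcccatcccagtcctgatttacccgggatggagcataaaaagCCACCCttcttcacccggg
Lef1 (chr3:131156044-131156293, plus strand): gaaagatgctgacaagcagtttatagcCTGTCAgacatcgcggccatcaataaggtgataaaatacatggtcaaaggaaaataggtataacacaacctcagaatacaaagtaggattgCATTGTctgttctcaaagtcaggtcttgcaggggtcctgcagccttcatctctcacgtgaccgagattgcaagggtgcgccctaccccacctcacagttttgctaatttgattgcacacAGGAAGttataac
Sparc (chr11:55420081-55420330, minus strand): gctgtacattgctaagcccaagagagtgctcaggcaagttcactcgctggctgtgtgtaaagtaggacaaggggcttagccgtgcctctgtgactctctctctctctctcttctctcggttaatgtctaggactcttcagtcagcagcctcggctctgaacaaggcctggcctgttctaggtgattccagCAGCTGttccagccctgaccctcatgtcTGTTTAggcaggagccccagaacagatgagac

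The windows shown are those with the highest mean scores among 9 EPC-only and 5 CPC-only promoters of list genes. The ETS letters AGGAAG were in 6 of the 9, the 4 shown and those of Sox1 and Tie1, and in 1 of the 5, that of Lef1. The CPC-only region at Lef1 ends at 131156199, before these letters in the window. That motif is common: it was in 37.4% of 214 windows overlapped by EPC-only regions, 33.0% of 112 windows overlapped by CPC-only regions and 34.4% of all 21263 windows. The GATA letters AGATAA were in 13.1% of the EPC-only windows (95% exact interval 8.87 to 18.4) and 14.3% of the CPC-only windows (8.39 to 22.2), against 5.12% of the windows of regions in all 4 lists and 9.65% of all windows. The E-box letters CAGCTG were in 26.8% of CPC-only windows (18.9 to 36.0) and 14.5% of EPC-only windows (10.1 to 19.9), with 15.6% in all windows. The MEIS letters TGACAG were in 27.7% and 17.8%, with 18.7% in all windows. The SOX letters ACAATG were in 5.36% of CPC-only windows (1.99 to 11.3) and 11.7% of EPC-only windows (7.70 to 16.8), with 11.0% in all windows. Shares for the TEAD letters GGAATG were 6.25% and 14.5%, with 13.6% in all windows. The other 3 motifs (forkhead TAAACA, T-box GGTGTG and KLF CCACCC) were at 10.7%, 20.5% and 37.5% of CPC-only windows. They were at 7.48%, 20.1% and 37.4% of EPC-only windows and 11.5%, 18.4% and 33.6% of all windows. In windows of regions in all 4 lists, ETS, E-box, MEIS, SOX and TEAD letters were at 31.0%, 13.8%, 16.1%, 6.34% and 10.8%. Forkhead, T-box and KLF letters were at 7.16%, 16.2% and 37.7% there. The E-box letters read the same on both strands, all motifs were searched on both strands, and overlapping matches were counted. Median GC content was 57.8% in CPC-only, 57.2% in EPC-only and 62.3% in shared windows. A match is a description of the letters.

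Of these promoters, Itga2b had scores of 274 and 484 in the induced EPC lists and 365 and 207 before induction, with no peak in any CPC list. Robo4 scored 161 and 279 under induction and 113 and 157 before it, and Egfl7 214 and 128 against 161 and 64.7, again with no peak in any of the 4 CPC lists. Those 3 promoters were therefore EPC-only both with and without induction. Cbfa2t3 scored 264 and 259 in induced EPC and 506 and 242 in uninduced EPC, with a peak of 51.4 in uninduced CPC replicate 2. The Lef1 promoter scored 127 and 158 in induced CPC and 111 and 84.5 in uninduced CPC, with no peak in any EPC list. Sparc scored 101 and 152 in induced CPC, 157 and 113 in uninduced CPC and 50.7 in uninduced EPC replicate 2. The promoter of Tie1, an endothelial receptor, had scores of 159 and 69.6 in induced EPC and 115 in uninduced EPC replicate 1 only.

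Which differences between the progenitors stood under Sox7 was asked first of the induced sets. A region was called standing when the uninduced lists gave the same call: a peak in both lists of its type and none in the other type. Of the 2908 CPC-only regions, 928 were standing (31.9%, 95% exact interval 30.2 to 33.6), and of the 3638 EPC-only regions 1089 (29.9%, 28.4 to 31.5). Over all merged regions, 5.27% had the CPC-only pattern before induction and 6.11% the EPC-only pattern. A further 523 CPC-only regions (18.0%) and 672 EPC-only regions (18.5%) had an uninduced peak in 1 list of their own type only. No uninduced peak at all was found at 945 CPC-only regions (32.5%) and 1292 EPC-only regions (35.5%), against 27.7% of all regions. The other type had an uninduced peak at 512 CPC-only regions (17.6%) and 585 EPC-only regions (16.1%), fewer than the regions with no uninduced peak. Intervals cover counting error only, and both uninduced groups have a short list: without uninduced replicate 2, with replicate 1 deciding alone, 1394 CPC-only and 1708 EPC-only regions were standing.

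**Figure D1:**
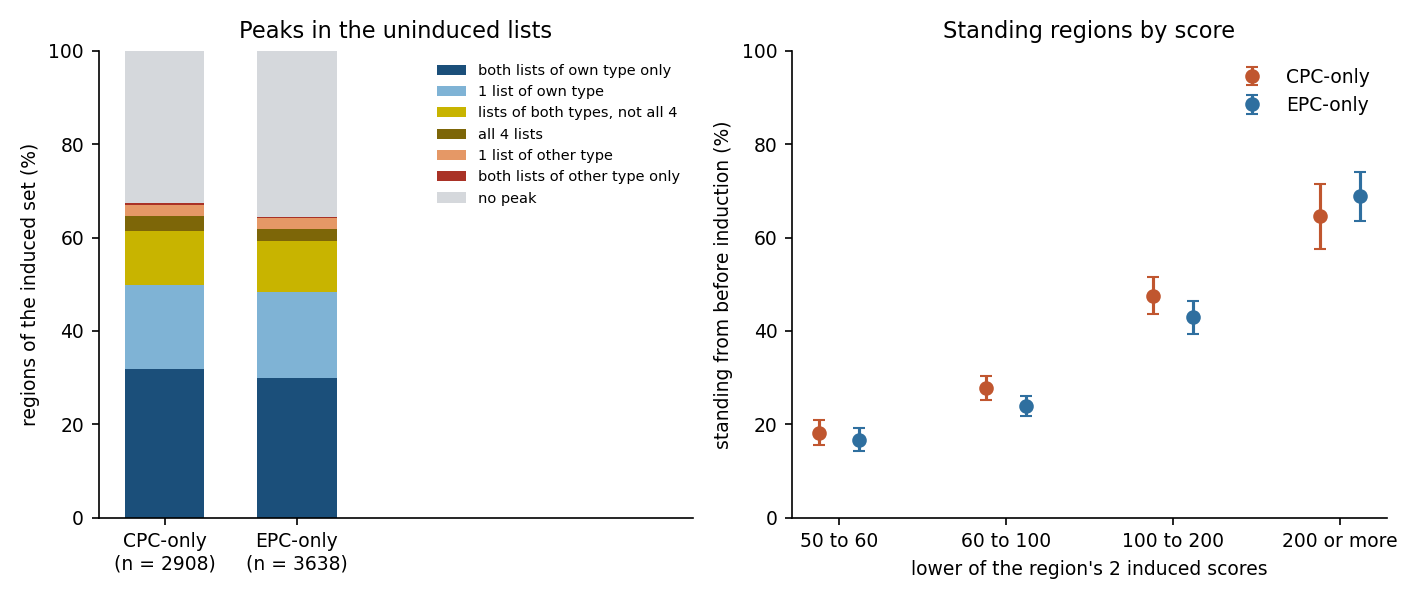
Left, stacked bars give the percent of induced CPC-only and EPC-only regions by their peaks in the 4 uninduced lists; right, points give the percent of regions standing from before induction, by the lower of the 2 induced scores, with 95% exact binomial intervals. The standing share was 18.2% and 16.7% at scores of 50 to 60 and 64.7% and 69.0% at 200 or more.

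Standing regions had the higher scores, as the plot of standing share by score shows. Where the lower of the 2 induced scores was 200 or more, 123 of 190 CPC-only regions (64.7%, 57.5 to 71.5) and 218 of 316 EPC-only regions (69.0%, 63.6 to 74.0) were standing. At scores of 50 to 60, just above the lowest score the lists hold, 144 of 793 (18.2%) and 159 of 952 (16.7%) were. Median mean scores were 118 in standing CPC-only and 128 in standing EPC-only regions, and 81.0 and 82.4 in those with no uninduced peak. Regions in all 4 induced lists had a median of 286, and 75.4% of them had a peak in all 4 uninduced lists. The part of depth in the calls near the lowest score was not tested.

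The 10 strongest EPC-only regions included some at vascular and blood genes and some far from genes. The highest mean score belonged to chr6:133386756-133388043, 91.0 kb from the nearest gene, with 1240 and 1356 in induced EPC and 1902 and 1172 in uninduced EPC. There the CPC lists had weak peaks before induction (75.4 and 50.7) and none after. Flt1, a VEGF receptor of endothelium, followed with a region inside the gene (chr5:147657355-147658597) at 1125 and 1010, and 1015 and 626 before induction, with no CPC peak in any list. Vav1, a signalling protein of blood cells, had 996 and 908 under induction and 2599 and 1124 before it, with 86.8 in uninduced CPC replicate 1. Robo2, a guidance receptor, had 720 and 1043, and 570 and 397 before. These were open in EPC at high scores with or without induction. In contrast, the regions inside Cntnap5a (791 and 1071) and Zfp618 (769 and 985) and the region 1.11 kb from Hcfc2 (765 and 920) had lower uninduced EPC scores, of 263 and 71.0, 254 and 103, and 225 and 205. The other 3 of the 10 highest were at chr2:74955466-74956798 (913 and 1097), 24.3 kb from Pde5a (839 and 1047) and inside Atf6 (832 and 989).

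The strongest CPC-only regions mostly had no named gene near them. Of the 10 highest, 6 had no protein-coding gene within 50 kb, with chr12:113926727-113928536 at 989 and 890, chr9:112833283-112834951 at 857 and 686 and chr3:133757843-133759144 at 884 and 613. Those 3 scored 594 and 317, 329 and 265, and 570 and 430 in uninduced CPC, and the third also had a peak of 100 in uninduced EPC replicate 2. The 4 inside genes were in Ifi209 (847 and 514), Zfp957 (709 and 610), Agbl4 (755 and 469) and Hsd17b4 (655 and 449). Hsd17b4 had 1 uninduced peak, of 77.3 in CPC replicate 1, and the regions in the other 3 genes had peaks in both uninduced CPC lists and in no EPC list.

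Both sets lay away from promoters, CPC-only regions more so. Within 1 kb of a gene boundary lay 202 of 2908 CPC-only regions (6.95%, 6.05 to 7.93) and 383 of 3638 EPC-only regions (10.5%, 9.55 to 11.6), against 54.8% of regions in all 4 lists and 29.9% of all regions. Among standing regions the shares were 3.77% (2.64 to 5.21) and 8.26% (6.70 to 10.1). No protein-coding gene lay within 50 kb of 773 CPC-only regions (26.6%) and 717 EPC-only regions (19.7%), with 15.0% over all regions. EPC-only regions were inside a gene in 1870 cases (51.4%) and CPC-only regions in 1290 (44.4%). Promoter windows were overlapped by 46.3% of the regions shared by all 4 lists.

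Of 16265 genes with a region assigned, 1789 (11.0%) had a CPC-only region and 2445 (15.0%) an EPC-only region, and 435 had both. CPC-only regions were most numerous at Auts2 with 6 of its 28 regions, Ptprn2 with 6 of 33, Syt1 with 5 of 14, and Galnt14 and Shank2 with 4 of 6 and 4 of 7, a count that 8 further genes shared. EPC-only regions were most numerous at Agbl4 with 8 of 26, Dlg2 with 7 of 31, Inpp4b with 6 of 13, Astn2 with 6 of 21, and Dcc with 5 of 9, a count that 7 further genes shared. None of the regions of Syt1, Galnt14 and Dcc in these sets was standing. Gene lists were described by the share of their regions in each set, since a gene with many regions has more chances of holding one.

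**Figure D2:**
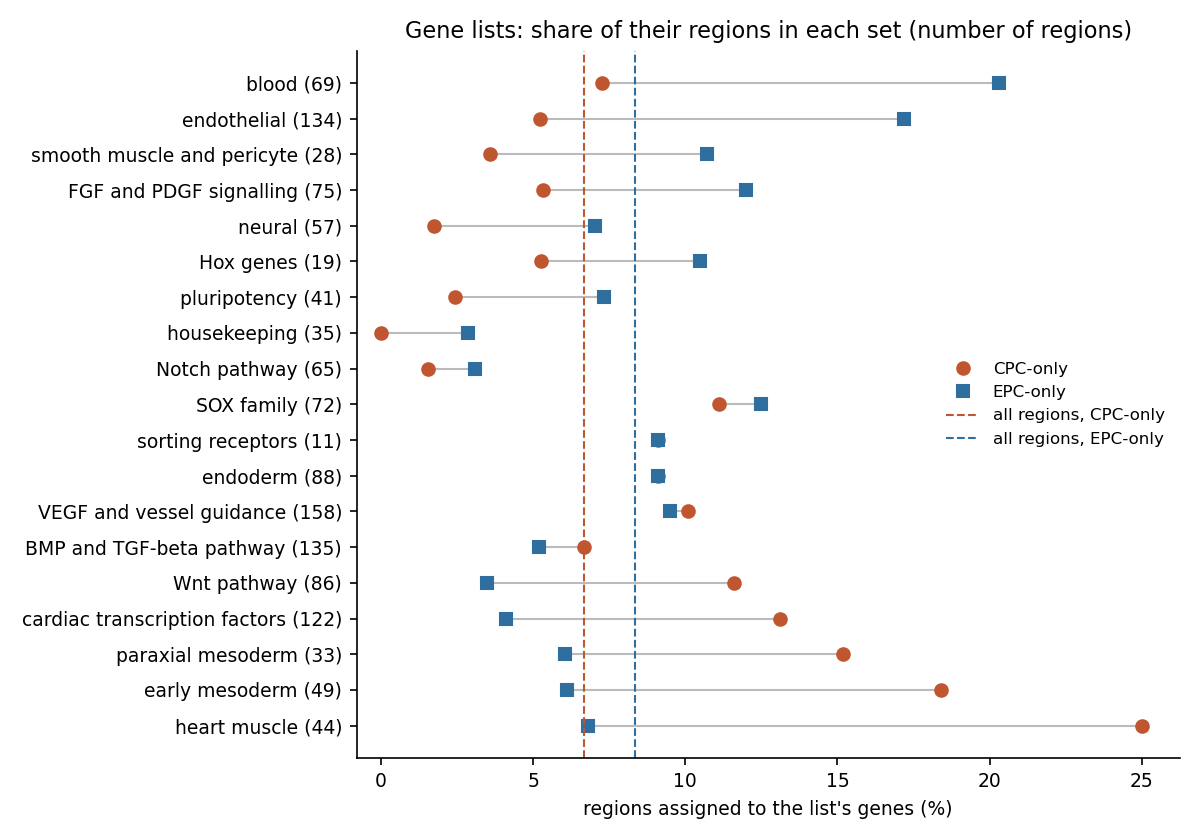
Each row is a gene list with the number of merged regions assigned to its genes; circles and squares give the percent of those regions that were CPC-only and EPC-only, and dashed lines the same over all regions (6.67% and 8.34%). Blood and endothelial genes lie to the right for EPC-only regions (20.3% and 17.2%) and heart muscle genes for CPC-only regions (25.0%).

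Endothelial genes carried EPC-only regions in 16 of 28 members with a region (57.1%) and CPC-only regions in 5 (17.9%). Over all genes with a region these shares were 15.0% and 11.0%. Members of the list had a median of 4.0 regions, against 2.0 over all genes with a region. Of the list's 134 regions, 23 (17.2%) were EPC-only and 7 (5.22%) CPC-only, and 11 of the 23 were standing. Fli1, an ETS factor of endothelium and blood, had a region inside the gene at 285 and 455 in induced EPC, with 157 in uninduced EPC replicate 1 and no other peak. Esam, an endothelial junction protein, scored 333 and 350 and likewise had 1 uninduced peak, of 160 in EPC replicate 1. Ets1 scored 193 and 353 under induction and 79.8 and 70.3 before it, in EPC only. Erg, another ETS factor, scored 186 and 303, and 582 and 230 before. At these Fli1, Esam and Ets1 regions the induced EPC scores were all above the uninduced ones, while at the Erg region they overlapped. A second EPC-only Fli1 region, 12.7 kb away, went the other way, with 75.9 and 57.0 under induction and 164 and 89.6 before it. Near Cdh5, the VE-cadherin gene, a region 1.69 kb away scored 202 and 180, and 211 and 52.1 before induction. A region 33.6 kb from Cd34, a surface marker of vessel and blood progenitors, scored 190 and 240, and 263 and 283 before. Near and inside Egfl7 lay 4 EPC-only regions, with means of 122 to 229, of which 3 were standing.

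Regions of the VEGF receptors differed within a gene. Flt1 had its strong EPC-only region and also 2 CPC-only regions inside the gene, the stronger at chr5:147661575-147662465 with 111 and 144 in induced CPC, and neither had a peak in any uninduced list. Nrp2, a coreceptor, had CPC-only regions inside the gene (130 and 142, and 279 and 136 before induction) and 9.11 kb away (285 and 100), and an EPC-only region inside the gene (120 and 181) with no uninduced peak. Flt4, the receptor of lymphatic endothelium, had 2 EPC-only regions, at 75.1 and 123 for the stronger. Sox17, a SOXF factor, had a CPC-only region 33.3 kb away (123 and 87.1) with no uninduced peak. Over the 24 genes of VEGF and vessel guidance, 10 had an EPC-only and 8 a CPC-only region, against 15.0% and 11.0% of all genes with a region. Of the list's 158 regions, 15 (9.49%) were EPC-only and 16 (10.1%) CPC-only, against 8.34% and 6.67% over all regions. Robo2 held regions of both sets, and Slit3, which encodes a ligand of Robo receptors, held CPC-only regions, the strongest at 252 and 434.

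Blood genes had EPC-only regions in 10 of 22 members and CPC-only regions in 4, against 15.0% and 11.0% of all genes with a region. Of 69 regions, 14 (20.3%) were EPC-only and 5 (7.25%) CPC-only. Of the 14, 10 were standing and 0 lacked an uninduced peak, against 29.9% and 35.5% over all EPC-only regions. Ikzf1, a lymphoid and blood factor, scored 371 and 569 in induced EPC, and 108 and 75.0 before. A region 6.07 kb from Tal1, a master factor of blood, scored 114 and 299, with 79.2 in uninduced EPC replicate 1 only. Inside Gata2 the scores were 151 and 166, and 451 and 137 before. Gata1 (76.5 and 103), Spi1 (77.9 and 159) and Ptprc (72.6 and 74.5) also kept EPC-only regions that were there before induction. Runx1 and Lmo2, both blood factors, had CPC-only regions instead. The stronger Runx1 region, inside the gene at chr16:92777714-92778885, scored 413 and 348 in induced CPC and 337 and 191 in uninduced CPC, and the region 10.8 kb from Lmo2 scored 307 and 164, and 116 and 115 before. Neither had a peak in any EPC list.

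Cardiac transcription factors showed the reverse pattern. CPC-only regions lay at 10 of 21 members with a region and EPC-only regions at 4, against 11.0% and 15.0% of all such genes. Of the list's 122 regions, 16 (13.1%) were CPC-only and 5 (4.10%) EPC-only. Of the 16, 6 were standing and 5 had no uninduced peak. Mesp1, which starts the cardiac programme in mesoderm, had a region 3.25 kb away at 319 and 214 in induced CPC, with 238 and 99.1 in uninduced CPC and 56.3 in uninduced EPC replicate 1. A further Mesp1 region, 2.04 kb away, scored 118 and 195 with no uninduced peak. Isl1, a factor of the second heart field, had a region 38.0 kb away at 175 and 231, also with no uninduced peak in either type. Hand2, a factor of heart chamber growth, had a region 0.462 kb away at 87.7 and 188, and 129 and 114 before. Tbx20 had 3 CPC-only regions, of which 2 were standing. Gata4 had a region inside the gene at 79.1 and 146 in induced CPC that all 4 uninduced lists held, so there the induced EPC lists were without a peak that uninduced EPC had (102 and 50.0). Mef2c, a factor of muscle and endothelium, carried 2 EPC-only regions, both standing, at 110 and 94.7 and at 67.5 and 137. Prdm1 had regions of both sets: 2 standing CPC-only regions inside the gene, the stronger at 254 and 178, and an EPC-only region 26.4 kb away at 337 and 241.

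Heart muscle genes had CPC-only regions in 7 of 14 members with a region and EPC-only regions in 3. Over all genes with a region the shares were 11.0% and 15.0%. Of the list's 44 regions, 11 (25.0%) were CPC-only and 3 (6.82%) EPC-only. Smyd1, a methyltransferase of heart and skeletal muscle, scored 296 and 239 in induced CPC and 150 and 127 before. Actc1, cardiac actin, had a region 4.20 kb away at 219 and 199. Before induction that region had peaks in CPC (462 and 165) and in EPC (76.2 and 116). A further Actc1 region, 13.9 kb away, scored 186 and 126 with no uninduced peak. Ryr2, the calcium release channel of heart muscle, was mixed: 4 CPC-only regions, the strongest 26.2 kb away at 269 and 109, and an EPC-only region inside the gene at 263 and 512, which scored 497 and 396 in uninduced EPC. Cacna1c, a calcium channel, had a CPC-only region at 74.2 and 109 that all 4 uninduced lists held. No region was assigned to 6 list members, among them Myh6, Nppa and Tnni3.

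**Figure D3:**
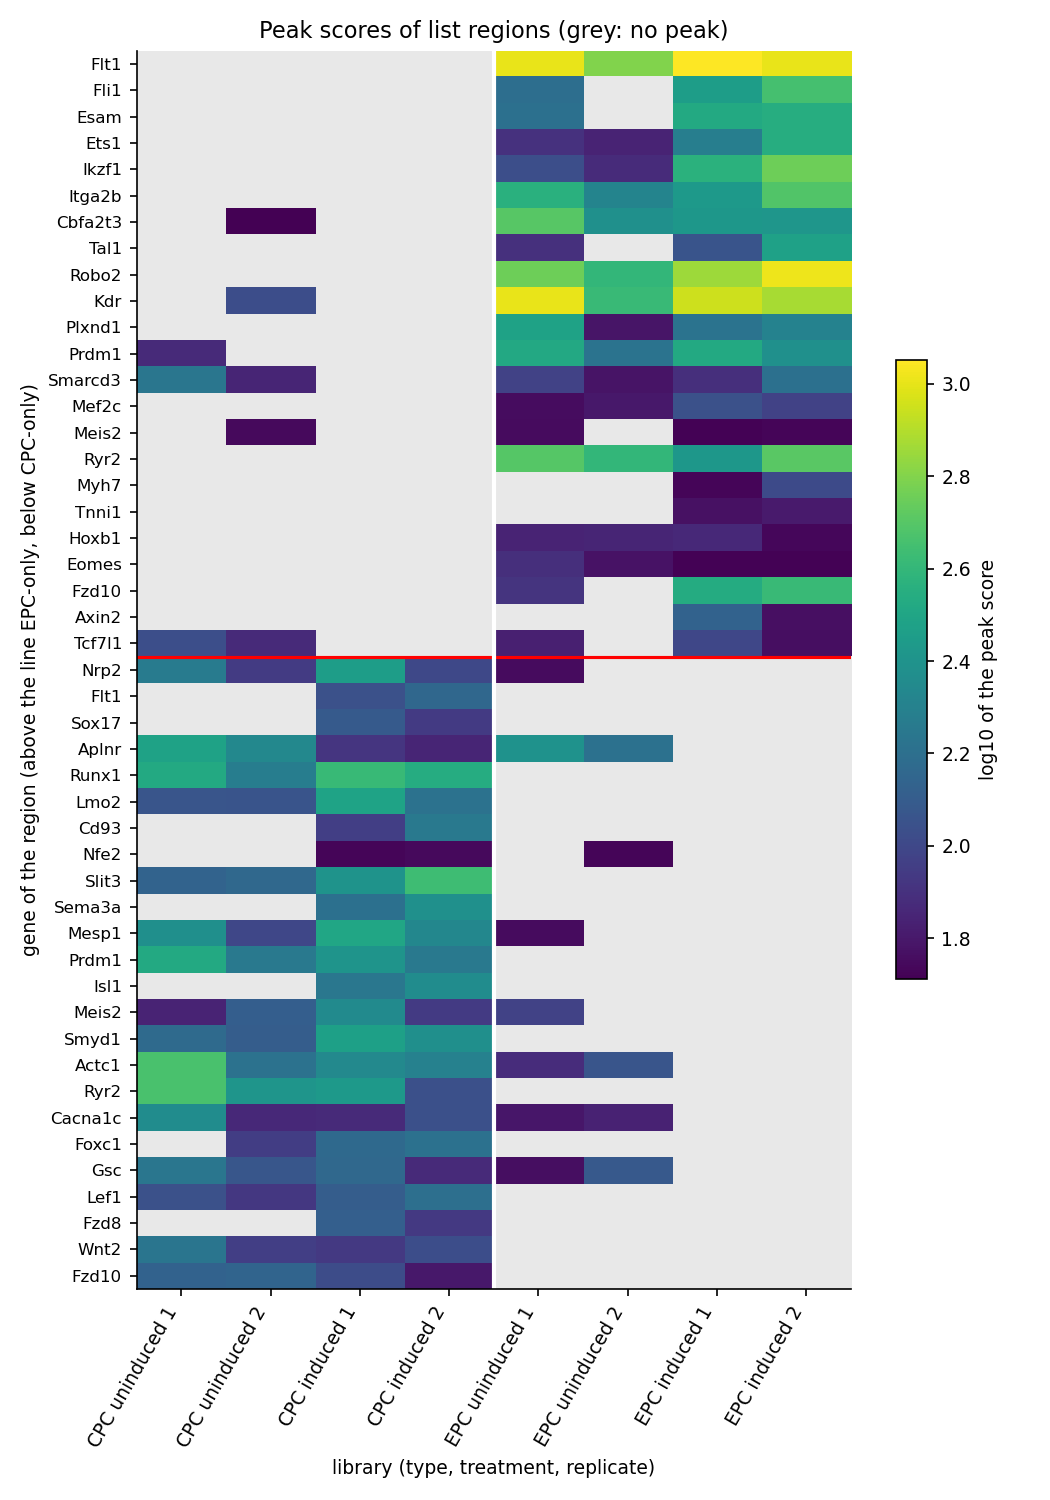
Rows are 47 regions, the strongest for up to 4 genes from each of 7 gene lists, with 23 EPC-only regions above the line and 24 CPC-only regions below it; columns are the 8 ATAC libraries, colour is the log10 of the peak score and grey means no peak. The rule fixes the filled and empty cells of the 4 induced columns, and the 4 uninduced columns show which regions had peaks without induction.

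Early mesoderm genes had CPC-only regions in 6 of 17 members and EPC-only regions in 3, against 11.0% and 15.0% of all genes with a region. Of the list's 49 regions, 9 (18.4%) were CPC-only and 3 (6.12%) EPC-only. Of the 9, 2 are the Mesp1 regions already counted among the cardiac factors, since Mesp1 is in both lists. Foxc1, a forkhead factor of mesoderm, had 3 CPC-only regions, of which 2 were standing. The strongest, at 147 and 162, was not standing, with 89.5 in uninduced CPC replicate 2 only. Paraxial mesoderm genes had 5 CPC-only (15.2%) and 2 EPC-only regions (6.06%) among 33. Pax3 held 3 of the 5, at mean scores of 107 and less, none of them standing, and Tcf15 had a standing EPC-only region at 365 and 167. The lists for the other cell types that the gates could hold were small, and their CPC-only and EPC-only regions follow in that order. Smooth muscle and pericyte genes had 1 and 3 of 28 regions (3.57% and 10.7%), and endoderm genes 8 and 8 of 88 (9.09% each). Pluripotency genes had 1 and 3 of 41 (2.44% and 7.32%), and neural genes 1 and 4 of 57 (1.75% and 7.02%). Hox genes had 1 and 2 of 19 (5.26% and 10.5%). Housekeeping genes had 0 and 1 of 35 (0% and 2.86%). Over all regions the shares were 6.67% and 8.34%.

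Signalling lists were described in the same way. Their counts of members stand beside 11.0% of all genes with a region for CPC-only and 15.0% for EPC-only regions. Wnt genes had CPC-only regions in 7 of 23 members with a region and EPC-only regions in 3, with 10 (11.6%) and 3 (3.49%) of 86 regions. Lef1 held 3 of them, Wnt2, a ligand, had 2 (the stronger at 85.3 and 106, and 170 and 91.0 before), and Fzd10, a receptor, had a CPC-only region (105 and 62.8) and a stronger EPC-only one (343 and 418, with 82.2 before in EPC replicate 1). FGF and PDGF genes went the other way, with EPC-only regions in 7 of 21 and CPC-only regions in 2, and 9 (12.0%) and 4 (5.33%) of 75 regions. Fgfr2, an FGF receptor, scored 514 and 479 in induced EPC, and 74.7 and 107 before. Pdgfb, the ligand that endothelium uses to recruit pericytes, had a region inside the gene at 277 and 107 with no uninduced peak in either type. Spry1, Spry2 and Spry4, feedback inhibitors of this pathway, each had an EPC-only region, and none of the 3 was standing. Among BMP and TGF-beta genes, CPC-only regions lay at the ligands Bmp2, Bmp5, Bmp6 and Bmp7, the antagonist Nog, the mediator Smad5 and the inhibitory Smad6, and EPC-only regions at the receptors Acvr1, Acvrl1, Tgfbr1 and Tgfbr2 and at Smad1, a mediator. The counts were 9 (6.67%) and 7 (5.19%) of 135 regions, against 6.67% and 8.34% over all regions. The CPC-only share was thus that of all regions, and the EPC-only share was lower. The strongest were Bmp2 (473 and 178) and Smad1 (151 and 201). Notch genes had few, 1 and 2 of 65 (1.54% and 3.08%), with Hey2 (178 and 117) lacking an uninduced peak.

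SOX genes had CPC-only regions at 4 and EPC-only regions at 6 of 19 members, against 11.0% and 15.0% of all genes with a region. Of the list's 72 regions, 8 (11.1%) were CPC-only and 9 (12.5%) EPC-only, against 6.67% and 8.34% over all regions. A region 6.71 kb from Sox7 itself was EPC-only at 263 and 360, and 524 and 495 before induction, with no peak in any CPC list. A region inside Sox7 (chr14:63947488-63948950) had a peak in all 4 induced lists, at 81.9 and 61.6 in CPC and 170 and 210 in EPC. It had a peak in 0 of 4 uninduced lists. Another region inside the gene (chr14:63943031-63944410) had 93.3 and 94.3 in induced CPC and 269 and 143 in induced EPC. Before induction that region scored 69.1 in CPC replicate 2 and 164 and 69.7 in EPC. Signal from the endogenous gene and from the transgene cannot be told apart inside the gene. Sox5 had 4 CPC-only and 3 EPC-only regions, and Sox1 2 EPC-only regions, of which the one 7.50 kb away (247 and 154) was standing.

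Sox7 binding was set beside the sets, using 235 sites with an anti-Myc ChIP peak in at least 3 of 4 induced lists and in 0 of 4 uninduced lists of unsorted cells. Induced sites overlapped 7 CPC-only regions (0.241%, 95% exact interval 0.0968 to 0.495), 15 EPC-only regions (0.412%, 0.231 to 0.679) and 0.477% of all regions. The share was higher, at 0.762%, in regions with a peak in all 4 induced lists. Among regions with no uninduced peak, sites overlapped 4 of 945 CPC-only (0.423%) and 8 of 1292 EPC-only regions (0.619%). No standing CPC-only region held a site (0 of 928, which allows a share of up to 0.323%), and 5 of 1089 standing EPC-only regions did. The authors' deposited list of 666 Sox7 peaks gave 11 CPC-only regions (0.378%, 0.189 to 0.676) and 47 EPC-only regions (1.29%, 0.951 to 1.71). It gave 1.07% over all regions and 1.66% of regions in all 4 induced lists. Among regions with no uninduced peak that list gave 6 of 945 CPC-only (0.635%, 0.233 to 1.38) and 27 of 1292 EPC-only (2.09%, 1.38 to 3.03). Among the EPC-only regions with a site were those inside Pigp (385 and 575), 16.2 kb from Gpam (212 and 398), both standing, and inside Pdgfb.

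The regions that differed between the uninduced types were then looked up in the induced lists. The 4 uninduced lists gave 39574 merged regions, of which 3050 (7.71%) were CPC-only and 3172 (8.02%) EPC-only. Of the uninduced CPC-only regions 925 (30.3%, 28.7 to 32.0) were still CPC-only under Sox7, and of the EPC-only regions 1084 (34.2%, 32.5 to 35.9) were still EPC-only. Both induced lists of the own type kept a peak at 1508 CPC-only regions (49.4%) and at 1910 EPC-only regions (60.2%). No induced list had a peak at 756 CPC-only regions (24.8%, 23.3 to 26.4) and at 503 EPC-only regions (15.9%, 14.6 to 17.2). All 4 induced lists had one at 262 (8.59%, 7.62 to 9.64) and 436 (13.7%, 12.6 to 15.0). The other type had a peak in at least 1 induced list at 809 CPC-only regions (26.5%, 25.0 to 28.1) and 1092 EPC-only regions (34.4%, 32.8 to 36.1). Regions of EPC were thus more often still open in EPC and more often joined by CPC, in these lists. With both types treated alike, the shares with a peak in the other type were 19.0% and 28.7% at equal list lengths. They were 29.8% and 34.1% without both uninduced replicate 2 lists. The order did not hold in every setting that left out 1 library of 1 type, which leaves the types with unequal numbers of lists. The shares with a peak in the other type were 26.5% and 24.1% without induced CPC replicate 1, 26.5% and 26.2% without induced CPC replicate 2, 43.8% and 31.2% without uninduced EPC replicate 1, and 34.0% and 28.9% without uninduced EPC replicate 2. The shares with no induced peak were 18.4% and 28.2% without uninduced EPC replicate 1, 22.1% and 33.4% without uninduced EPC replicate 2, 40.7% and 14.0% without uninduced CPC replicate 2, and 25.5% and 24.7% without induced EPC replicate 2. A peak in the other type was found at 16.8% of the CPC-only regions without induced EPC replicate 2. Without uninduced CPC replicate 1 it was found at 52.6% of the EPC-only regions. Without uninduced EPC replicate 2, 1630 EPC-only regions stayed EPC-only.

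**Figure D4:**
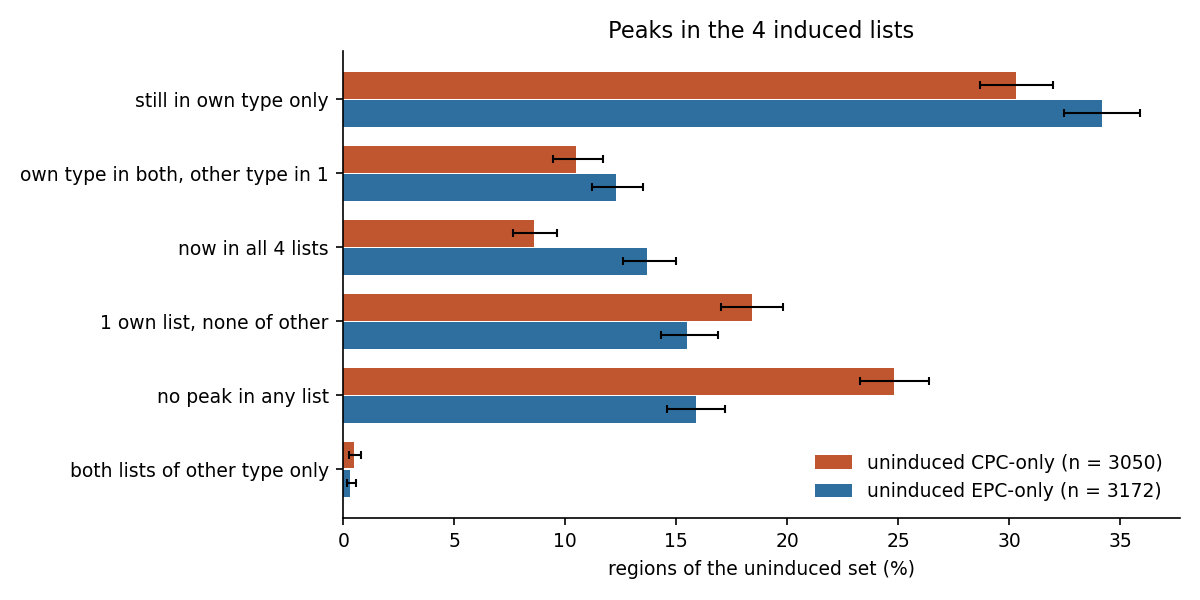
Bars give the percent of uninduced CPC-only and uninduced EPC-only regions by their peaks in the 4 induced lists, with 95% exact binomial intervals that cover counting error only. No induced list had a peak at 24.8% of the CPC-only and 15.9% of the EPC-only regions, and all 4 had one at 8.59% and 13.7%.

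Regions that were open in 1 type before and in both after are described by examples from the 12 of each set with the highest uninduced scores. Inside Gpr39 (chr1:125662594-125663736) the EPC lists scored 2279 and 1108 before and 1764 and 1738 after, and the CPC lists had no peak before and 54.2 and 63.9 after. The region assigned to AA986860 scored 872 and 505 before and 1924 and 1571 after in EPC, with 557 and 523 in induced CPC. On the CPC side, the Adamts16 region (chr13:70740520-70741878) scored 854 and 505 before and 352 and 208 after in CPC, with 55.1 and 67.0 in induced EPC. At Dmd, the dystrophin gene, CPC scored 757 and 335 before and 639 and 722 after, with 57.9 and 104 in induced EPC. A presence call reads these 4 regions as shared although the induced scores of the types did not overlap. Of the regions lost from all induced lists, the strongest CPC-only one, on chromosome 8 at 103408793 to 103409877, had scored 584 and 384, and the strongest EPC-only one, at Fer, 392 and 156. CPC-only regions with no induced peak also included one at Actg2, a smooth muscle actin (419 and 183).

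What was kept is given by gene list, where most counts rest on few regions and were not tested. Of 14 uninduced EPC-only regions at blood genes, 10 were still EPC-only and 0 had lost every induced peak, and the 10 lay at Cbfa2t3, Cd93, Gata1, Gata2, Ikzf1, Itga2b, Ptprc, Spi1 and Tal1. Of 26 at endothelial genes, 12 were still EPC-only, 8 had a CPC peak under induction (at Aplnr, Cdh5, Ets1, Nos3, Nrp2, S1pr1 and Tek) and 4 had no induced peak (at Cdh5, Fli1 and Flt1). Of 16 uninduced CPC-only regions at cardiac transcription factors, 6 were still CPC-only (at Hand2, Meis2, Prdm1 and Tbx20), 7 had an EPC peak under induction (at Gata4, Gata5, Gata6, Smarcd3 and Tbx2) and 3 had none. At heart muscle genes 3 of 4 were kept, at Myl3, Ryr2 and Smyd1. Wnt genes kept 4 of 14, and 4 of the 14 had no induced peak, at Axin2, Tcf7l1 and Wnt11. Smooth muscle and pericyte genes kept 0 of 6, of which 3 had an EPC peak under induction, at Myh11, Myocd and Rgs5. In the merge of the induced lists, whose borders differ, 1 Rgs5 region 1.45 kb away counted as standing, with 147 and 52.0 in induced CPC and 297 and 63.0 before. These counts stand beside 34.2% and 30.3% kept over all uninduced EPC-only and CPC-only regions. Over the same regions, 34.4% and 26.5% had an induced peak in the other type, and 15.9% and 24.8% had no induced peak. The counts kept at cardiac transcription factors and Wnt genes lay near the share over all CPC-only regions.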

How the data were processed

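The build is GRCm38 (mm10), and Bowtie2, MACS 1.4, Trimmomatic, SAMtools and bedtools are named without a role, per the submitters' processing notes. The deposited files are peak lists, 1 per library, each peak with a score from the authors' peak caller, used here as its own value and to rank regions. Peaks were merged and laid over each other with Python 3.11.15 and pandas 2.3.3. Regions went to all protein-coding genes that they overlapped (21887 genes of RefSeq GRCm38.p6, without strand), otherwise to the nearest gene boundary within 50 kb. Exons and introns were not used here. Means are over the lists of the type that defines the set. All 347 genes of the 19 lists matched. Shares have exact (Clopper-Pearson) 95% intervals, a count of 0 allows 3 counts, and measures per library were tested by exact permutation. Region counts have no test. The code recovered planted regions from simulated data.

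The lists, rules and alternatives were chosen with earlier results of these data known. The text names the 10 strongest regions of each set, list members (values for up to 4 genes a list by mean score), the sort receptors, Sox7, the 5 genes with most regions and the promoters of list genes. Other genes named for lost, shared or Sox7-bound regions, and further list members, were chosen after their values were seen. Regions at some genes are not reported here.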

Additional observations from a re-analysis of the deposited data

Results flagged for a closer look

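At a few regions the call was for 1 type in the uninduced lists and for the other in the induced lists, which was not tested. At 12 of the 2908 induced CPC-only regions (0.413%), both uninduced EPC lists and no uninduced CPC list had a peak. At 13 of the 3638 induced EPC-only regions (0.357%) the reverse held. Those uninduced patterns were found at 6.11% and 5.27% of all merged regions, so reversed calls were rarer than these patterns over all regions. Induced mean scores at these regions ran no higher than the 137 of a region inside Vangl1, a planar polarity gene, which scored 194 and 134 in uninduced CPC and 152 and 121 in induced EPC. The region inside Oxr1 scored 109 and 126 in uninduced EPC and 69.7 and 155 in induced CPC.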

How the results depend on the processing

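The 6 region counts stayed within 1.5 times with equal list lengths, a 200 bp overlap, a 500 bp gap and a merge over all 8 lists. When only peaks scoring at least 100 were read from each list, 1758 CPC-only and 2379 EPC-only induced regions were counted. With 100 needed for presence and any peak against absence there were 828 CPC-only and 1082 EPC-only regions, of which 268 and 333 were standing, and 268 and 329 uninduced regions stayed with their type; both settings ask for higher scores. Leaving out 1 library in turn gave 3776 to 6243 CPC-only and 4806 to 7522 EPC-only induced regions, 998 to 1394 and 1167 to 1708 standing, and 994 to 1398 and 1161 to 1729 uninduced regions that stayed, where the upper values of the last 4 ranges leave out both uninduced replicate 2 lists; with fewer lists, fewer must match. Without either CPC library, CPC-only regions outnumbered EPC-only ones (5557 to 5166 without replicate 1, 6243 to 4806 without replicate 2). Leaving out uninduced libraries for standing regions, induced libraries or both uninduced replicate 2 lists for regions that stayed, and every setting of the shares of uninduced regions, were chosen after seeing the data. The share of uninduced EPC-only regions with no induced peak was 24.3% with equal list lengths and 4.30% with 100 needed for presence, and that of CPC-only regions 32.2% and 10.3%. The difference in median width (CPC minus EPC) ran from -30 to 0 bp and that in the share near gene boundaries from -0.456 (without CPC replicate 2) to 1.06 percentage points, with -0.398 without EPC replicate 2; the cause was not tested. With a replicate block, the exact sign-flip p was 1.00 for peaks (difference -1188), 0.500 for covered length, 0.500 for width and 1.00 for the share, where 0.500 is the smallest that 2 pairs allow; same-numbered libraries did not deviate together (r = -0.00260 over regions). The type with a region at more members, or a tie, was the same in 17 of 19 gene lists with genes within 10 kb and in 11 with 100 needed for presence, and the opposite type led in 0. What depth limits cannot be stated, since the lists give none.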

Other observations

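Chromosome 10 held 114 CPC-only and 217 EPC-only regions of 2327, or 4.90% and 9.33%, a ratio of EPC-only to CPC-only of 1.90 that was the highest of the 21 chromosomes. Before induction it held 155 and 167, a ratio of 1.08. Its share of all peaks was 5.19% and 5.20% in the induced CPC lists and 5.45% and 5.46% in the induced EPC lists. Chromosome 14, which carries Sox7, held 148 and 117, a ratio of 0.791, and 146 and 125 before induction. No test was run on these counts.

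Regions without an uninduced peak that appeared in 1 type alone reached high scores. The strongest EPC-only regions with no uninduced peak lay inside Nav2, a gene of cytoskeletal guidance (mean score 674), inside Agbl4 (544) and 18.7 kb from Rasd2 (528), and that inside Cd63, a tetraspanin of vesicles, had a mean score of 335. The strongest CPC-only regions of this kind were on chromosome 15 at 8865643 to 8866696 (436), 11.0 kb from Olfr891 (413) and, inside a gene, at Gpr39 (293).

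Some differences came from a peak that the other type no longer had. Of 92 CPC-only regions held by all 4 uninduced lists, the one inside Gli2, a factor of hedgehog signalling, scored 931 and 594 in CPC and 94.3 and 59.0 in EPC before induction, and 269 and 167 in CPC after. Of 95 such EPC-only regions, the one at Ctla2a scored 1556 and 764 in EPC and 115 and 121 in CPC before induction, with an induced mean score of 404 in EPC.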
